A study of Mus musculus with 8 samples.

Results

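The genes described here are 6 genes of the MHC class II pathway, H2-Aa, H2-Ab1, H2-Eb1, H2-DMa, Cd74 and Ciita, chosen by gene symbol. Each was read by 1 probe set that carries its symbol alone, so all 6 of 6 were measured among the 19938 genes of the table. The cells were T helper cells from mice, of the Th1 or the Th17 subset. Wild-type cells came from Tet2(f/f) mice, in which the Tet2 gene carries loxP sites, and Tet2-deficient cells from CD2(Cre)Tet2(f/f) mice, in which a Cre recombinase expressed under CD2 control, known to act in lymphocytes, removes the floxed part. Both genotypes therefore carry the floxed Tet2 alleles and only the second carries Cre. Each of the 4 groups was measured on 2 arrays, named as biological replicates, which makes 8 in all. The labels used here give no age, sex, strain, culture time or cell purification, and nothing says whether a replicate was 1 mouse or a pool, so p-values measure the spread between these arrays.

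MHC class II molecules are pairs of an alpha and a beta chain that hold peptides from endocytosed proteins for CD4+ T cells. H2-Aa and H2-Ab1 encode the chains of the I-A molecule and H2-Eb1 the beta chain of I-E. Cd74 encodes the invariant chain, which escorts new class II molecules to the endosome, H2-DMa a chain of the H2-DM molecule that exchanges the invariant chain's fragment for peptide, and Ciita the coactivator that switches these genes on together. Their known high expressors are dendritic cells, macrophages and B cells, and Ciita is a known target of interferon-gamma in many other cells. Mouse T cells are known for little class II transcription of their own. In a bulk sample, fewer cells of a type and less RNA per cell cannot be told apart.

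The data are log2 probe-set signals. The signal of a probe set depends on its probes, so a gene is compared between arrays, not with another gene. The T cell label fits the markers: Cd3e lay between 11.00 and 11.51 and Cd4 between 10.18 and 10.42 on the 8 arrays. The Tet2 probe set differed by a log2 fold change of -0.03 ± 0.12 (SE) between genotypes in Th1 and -0.14 ± 0.12 in Th17 cells, and since its probes may lie outside the deleted part it checks nothing about the deletion. Xist, which the inactive X chromosome of females transcribes, read 10.07 on Th17 wild-type replicate 2, 8.60 on Th17 Tet2-deficient replicate 1 and 11.27 on Th17 Tet2-deficient replicate 2, against 4.80 to 5.15 on the other 5 arrays, so 3 Th17 arrays held RNA from female mice, and Xist was low on every Th1 array.

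Of the 6 genes, 2 were called lower in Th17 than in Th1 cells, as were 9.79% of all genes. None was called for Tet2 loss in either subset, where 0.00502% of all genes were called in Th1 and 0% in Th17 cells. H2-Ab1 was 2.05-fold lower in Th17 cells and H2-Eb1 1.33-fold lower, each as the mean of both genotypes. The other 4 genes had log2 fold changes between -0.37 and -0.11 that did not pass. Calls are adjusted p-values under 0.05 in limma, over all genes (processing described after the results).

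H2-Ab1, the beta chain of I-A, carried the largest difference of the 6. Its log2 signal was 8.04 and 7.58 for Th1 wild-type, 8.73 and 7.82 for Th1 Tet2-deficient, 6.76 and 7.17 for Th17 wild-type, and 7.06 and 7.05 for Th17 Tet2-deficient cells. All 4 Th1 arrays lay above all 4 Th17 arrays, with a gap between 7.58 and 7.17. The groups ranked Th1 Tet2-deficient (8.28 ± 0.64, SD, n = 2), Th1 wild-type (7.81 ± 0.32), Th17 Tet2-deficient (7.05 ± 0.0067) and Th17 wild-type (6.97 ± 0.29), and neighbours of the same subset did not differ beyond their spread. The mean log2 difference, Th17 minus Th1, was -1.03 ± 0.17 (SE, 95% confidence interval -1.41 to -0.66, adjusted p = 0.00125, limma). It was -0.84 ± 0.25 in wild-type cells, which did not pass (adjusted p = 0.0538), and -1.22 ± 0.25 in Tet2-deficient cells, which did (adjusted p = 0.00764). The wild-type value, near the threshold, passed with a replicate block (adjusted p = 0.0477), in a fit of the 4 wild-type arrays alone (0.0257) and with a filter on low signal (0.0318). The Tet2-deficient call ended on omitting Th1 Tet2-deficient replicate 1 (-0.77, adjusted p = 0.0672) and on omitting Th17 Tet2-deficient replicate 1 (-1.23, adjusted p = 0.0543). The mean difference passed in all 8 fits that left out 1 array, from -1.26 to -0.81, and in all 9 other fits tried, from -1.11 to -0.99.

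**Figure D1:**
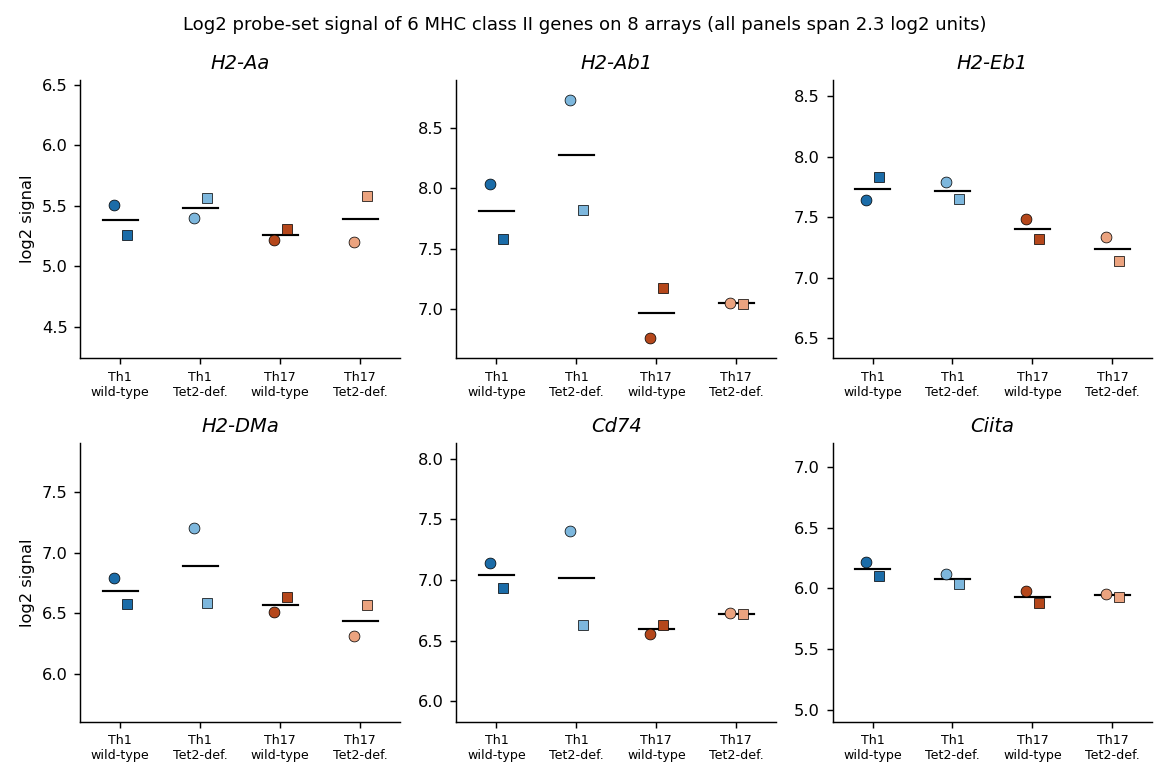
Log2 probe-set signal (vertical axis) of the 6 MHC class II genes in the 4 groups (horizontal axis), with a point for each array (circle, replicate 1; square, replicate 2) and a bar at the mean of 2 arrays. H2-Ab1 lies between 7.58 and 8.73 on the Th1 arrays and between 6.76 and 7.17 on the Th17 arrays, and Th1 Tet2-deficient replicate 1 is the highest array for H2-Ab1, H2-DMa and Cd74.

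H2-Eb1, the beta chain of I-E, differed less but with tighter replicates. It read 7.64 and 7.83 for Th1 wild-type, 7.79 and 7.65 for Th1 Tet2-deficient, 7.49 and 7.32 for Th17 wild-type, and 7.34 and 7.14 for Th17 Tet2-deficient cells. The lowest Th1 array, at 7.64, lay above the highest Th17 array, at 7.49. The mean log2 difference was -0.41 ± 0.09 (95% confidence interval -0.60 to -0.21, adjusted p = 0.00691, limma). Within a genotype it was -0.33 ± 0.13 in wild-type (adjusted p = 0.129) and -0.48 ± 0.13 in Tet2-deficient cells (adjusted p = 0.0315), and the last call ended without any 1 of the 4 Tet2-deficient arrays (-0.58 to -0.38, adjusted p from 0.0673 to 0.210). With a covariate for the female share of the RNA, an alternative added after the data were seen, the mean difference of H2-Eb1 was -0.30 and did not pass (adjusted p = 0.126), whereas that of H2-Ab1 was -1.11 and passed (adjusted p = 0.00979).

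H2-Aa, the alpha chain that pairs with the product of H2-Ab1, had no called difference. It read 5.50 and 5.26 for Th1 wild-type, 5.40 and 5.56 for Th1 Tet2-deficient, 5.22 and 5.31 for Th17 wild-type, and 5.20 and 5.58 for Th17 Tet2-deficient cells. The subsets overlapped, the highest of the 8 values being on a Th17 array, and every value lay under the median gene of its array, which was 6.53 to 6.61. The mean subset difference was -0.11 ± 0.10 (95% confidence interval -0.32 to 0.11, adjusted p = 0.466), where that of H2-Ab1 ended at -0.66. It ran from -0.20 without Th17 Tet2-deficient replicate 2 to -0.01 without Th17 Tet2-deficient replicate 1, was -0.04 after repeated quantile normalization, -0.06 after centring and -0.26 with the female share, and passed in none of the fits tried. The difference between the 2 genes was not tested.

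The genes of the I-A and I-E chains lie close together on mouse chromosome 17. In build GRCm38.p6, H2-Ab1 (gene ID 14961) runs from 34263227 to 34269418, H2-Aa (14960) from 34282744 to 34287823 and H2-Eb1 (14969) from 34305867 to 34316674. H2-DMa (14998) lies on the same chromosome from 34119693 to 34139101, and Ciita (12265) on chromosome 16 from 10480014 to 10531064. The promoters of H2-Aa and H2-Eb1, from the RefSeq promoter table of that build, are shown because both hold letters of the known class II promoter elements and the genes differ in their calls. An RFX factor binds the X box and NF-Y the Y box of these promoters, and Ciita is known to dock on the factors bound there. RefSeq windows of 250 bases before to 50 bases after a transcript start were found for 3 of the 6 genes, H2-Aa, H2-Eb1 and H2-DMa, in 4 windows. Each stretch is printed 5′ to 3′ on the gene's strand, and the capitals mark an RFX half-site (GCAAC) and the CCAAT box in reverse (ATTGG).
H2-Aa, minus strand, chr17:34287852-34287919: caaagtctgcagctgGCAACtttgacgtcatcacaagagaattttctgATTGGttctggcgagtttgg
H2-Eb1, plus strand, chr17:34305761-34305827: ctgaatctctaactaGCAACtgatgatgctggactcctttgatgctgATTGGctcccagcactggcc

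In both promoters the half-site came first and ATTGG followed it, with 33 bases from start to start in H2-Aa and 32 in H2-Eb1. The half-site began at -81 and -91 and ATTGG at -48 and -59 relative to the transcript start. A CCAAT box (CCAAT on either strand) was found in 37.4% of the 32851 windows in the table and an RFX half-site (GCAAC or GTAAC on either strand) in 50.03%. The pair in this order on the gene's strand, 25 to 40 bases apart, was found in 0.548% of the windows, a spacing chosen after both sequences were seen. Neither H2-DMa window held the pair: the first had a half-site at -7 alone and the second a CCAAT box at -198 alone. The E box (CACGTG), the interferon-gamma activated element (TTCNNNGAA) and the interferon regulatory factor element (GAAANNGAA), searched on both strands, matched no window of the 3 genes, against 7.15%, 8.30% and 8.56% of all windows. The H2-Eb1 window held a further CCAAT at -35 and GTTAC, a half-site in reverse, at 32. H2-Aa and H2-Eb1 held the same pair of letters, and a link between the pair and the signals was not tested.

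Cd74, the invariant chain, was higher on 3 of the 4 Th1 arrays than on any Th17 array. It read 7.14 and 6.94 for Th1 wild-type, 7.40 and 6.63 for Th1 Tet2-deficient, 6.56 and 6.63 for Th17 wild-type, and 6.72 and 6.72 for Th17 Tet2-deficient cells. Th1 Tet2-deficient replicate 2 fell among the Th17 arrays, so the subsets overlapped. The mean subset difference of -0.37 ± 0.14 did not pass (95% confidence interval -0.67 to -0.07, adjusted p = 0.0705). It passed with the filter on low signal (adjusted p = 0.0478) and omitting Th1 Tet2-deficient replicate 2 (-0.56, adjusted p = 0.00205), and omitting Th1 Tet2-deficient replicate 1 it was -0.18 (adjusted p = 0.226).

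H2-DMa, of the peptide exchange step, read 6.79 and 6.57 for Th1 wild-type, 7.20 and 6.58 for Th1 Tet2-deficient, 6.51 and 6.63 for Th17 wild-type, and 6.31 and 6.57 for Th17 Tet2-deficient cells. A Th17 wild-type array exceeded a Th1 array of each genotype. The mean subset difference was -0.28 ± 0.13 (95% confidence interval -0.55 to -0.01, adjusted p = 0.129). Without Th1 Tet2-deficient replicate 2 it was -0.44 and passed (adjusted p = 0.0155), and omitting Th1 Tet2-deficient replicate 1 it was -0.13 (adjusted p = 0.448).

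Ciita, the coactivator, had a small difference with no overlap between subsets. Its signal was 6.22 and 6.10 for Th1 wild-type, 6.12 and 6.04 for Th1 Tet2-deficient, 5.98 and 5.88 for Th17 wild-type, and 5.95 and 5.93 for Th17 Tet2-deficient cells. The mean difference of -0.18 ± 0.07 did not pass (95% confidence interval -0.34 to -0.02, adjusted p = 0.103). All 8 values lay under the median gene of their array.

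Over the 6 genes, 2 were called lower in Th17 cells and 0 higher, where 9.79% of all genes were called lower. The median log2 difference of the 6 was -0.33, against -0.04 for all genes. For 3 of the 6, H2-Ab1, H2-Eb1 and Ciita, all Th1 arrays lay above all Th17 arrays, as for 11.9% of all genes. In wild-type cells 0 of the 6 were called (3.44% of all genes called lower) and in Tet2-deficient cells 2 (3.79%). The 6 genes were read on the same arrays, so their common direction is not 6 independent observations.

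**Figure D2:**
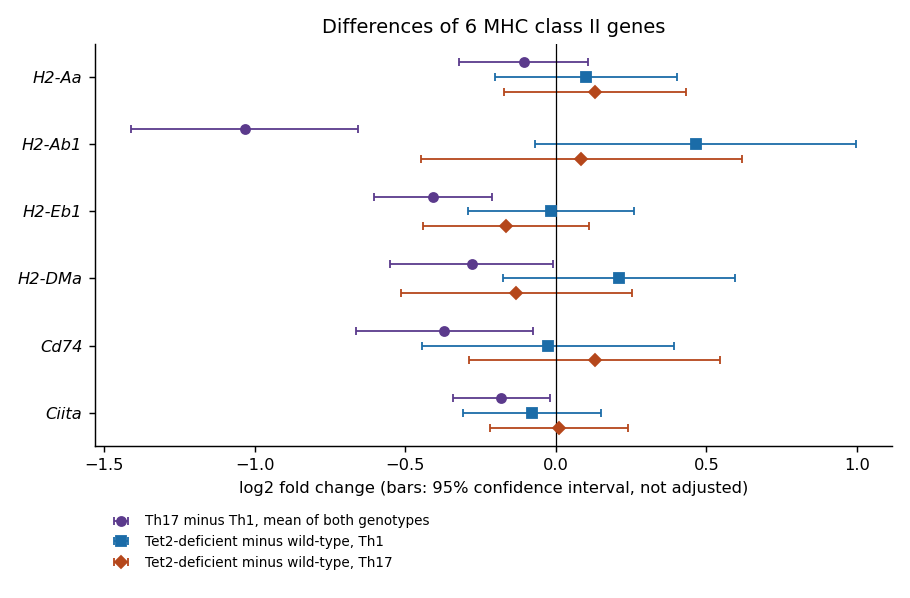
Log2 fold change (horizontal axis) of each of the 6 genes with its unadjusted 95% confidence interval, for Th17 minus Th1 as the mean of both genotypes and for Tet2-deficient minus wild-type in each subset. The subset difference of H2-Ab1 runs from -1.41 to -0.66, and every interval of a Tet2 effect includes 0.

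No change of the 6 genes with Tet2 loss passed the test in either subset. In Th1 cells, H2-Ab1 had the largest log2 fold change, 0.46 ± 0.25 (95% confidence interval -0.07 to 0.998, adjusted p = 0.834, limma), with a Tet2-deficient array at 8.73 above both wild-type arrays and another at 7.82 between them. Without that upper array, Th1 Tet2-deficient replicate 1, the value was 0.01. H2-DMa followed with 0.21 ± 0.18 (95% confidence interval -0.17 to 0.59) and was -0.10 without the same array. H2-Aa (0.10), H2-Eb1 (-0.02), Cd74 (-0.03) and Ciita (-0.08) had values within 1 SE of 0. Limma called 0 of the 6, and 0.00502% of all genes, which is 1 gene, Ifng. An unadjusted p under 0.05 was found for 6.05% of all genes (1206) and for 0 of the 6.

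In Th17 cells the log2 fold changes with Tet2 loss lay between -0.17 for H2-Eb1 (95% confidence interval -0.44 to 0.11) and 0.13 for H2-Aa (-0.17 to 0.43) and Cd74 (-0.29 to 0.55). H2-Ab1 had 0.08 ± 0.25 (-0.45 to 0.62), H2-DMa -0.13 ± 0.18 and Ciita 0.01 ± 0.11. Limma called 0 of the 6 and 0% of all genes, and 4.13% of all genes (824) but 0 of the 6 had an unadjusted p under 0.05. The mean Tet2 effect over both subsets ran from -0.09 (H2-Eb1) to 0.27 (H2-Ab1, 95% confidence interval -0.10 to 0.65), with 0 of the 6 and 0% of all genes called, while 5.48% of all genes and 0 of the 6 had an unadjusted p under 0.05. The Tet2 effects in the subsets were not shown to differ for any of the 6: the difference, Th17 minus Th1, was -0.38 ± 0.35 for H2-Ab1 and -0.34 ± 0.25 for H2-DMa (adjusted p = 0.999 for both). Limma called 0% of all genes in that difference, and 4.48% of all genes and 0 of the 6 had an unadjusted p under 0.05.

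In Th1 Tet2-deficient cells, replicate 1 exceeded replicate 2 in 3 of the 6 genes by more than in nearly all genes. The shares below count the signed gap, replicate 1 minus replicate 2, so equally wide gaps in the other direction are left out. Replicate 1 exceeded replicate 2 by 0.91 in H2-Ab1, a gap that 0.0802% of all genes reached, by 0.78 in Cd74 (0.135%) and by 0.62 in H2-DMa (0.316%). The gap was 0.14 in H2-Eb1, 0.08 in Ciita and -0.16 in H2-Aa, values that 24.6%, 36.3% and 84.1% of genes reached. Of all 19938 genes, 10911 were higher on replicate 1, with a median gap of 0.02. Of the markers of antigen-presenting cells, most of which lay under the median gene, 4 of 15 for B cells, 8 of 16 for dendritic cells and 10 of 15 for macrophages were higher on replicate 1, with median gaps of -0.10, -0.02 and 0.01. The widest gap among them was that of Cd68, the macrophage marker with the highest signal, at 7.99 against 7.55. Of the 11 other class II pathway genes, 8 were higher on replicate 1, with a median gap of 0.16. The part of other cells in these gaps was not tested.

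Antigen-presenting cells that remain in a T cell culture would bring class II transcripts with them, so the markers of B cells, dendritic cells and macrophages were read on the same arrays. Of the 12 T cell markers, 1, Trat1 (4.91 to 5.37), lay under the median gene on every array. A low signal thus does not show that a cell type is absent. Of the 46 measured markers, 36 lay under the median gene on all 8 arrays, and the share of all genes that do was not counted. Those 36 included every defining marker measured: Cd79a (3.77 to 4.36) and Ms4a1 (4.55 to 4.87) for B cells, Itgax (5.34 to 5.72), Flt3 (5.54 to 6.07) and Zbtb46 (5.80 to 6.15) for dendritic cells, and Csf1r (5.32 to 5.63), Cd14 (5.67 to 5.99) and Adgre1 (4.59 to 4.94) for macrophages. The brightest markers were Ebf1 (6.36 to 6.93) and Cd79b (6.50 to 6.75) for B cells, Cst3 (9.96 to 10.32), Ppt1 (9.04 to 9.67) and Bst2 (7.35 to 7.97) for dendritic cells, and Cd68 (7.25 to 7.99) for macrophages. The linear signals summed over the 15 B cell markers were 855 to 886 for Th1 wild-type, 812 to 852 for Th1 Tet2-deficient, 797 to 839 for Th17 wild-type and 794 to 854 for Th17 Tet2-deficient cells. Over the 16 dendritic cell markers the sums were 2715 to 2850, 2744 to 2901, 2624 to 2714 and 2975 to 2997 in the same order, led by Cst3 and Ppt1, which many cell types express. Over the 15 macrophage markers they were 824 to 892, 827 to 899, 724 to 744 and 781 to 782, so that the lowest Th1 sum lay above the highest Th17 sum. These sums were led by Cd68, and the other 14 markers lay under the median gene on all 8 arrays. The difference between the sums was not tested. Gene by gene, the mean subset difference was below 0 for 13 of 15 macrophage, 13 of 16 dendritic cell and 12 of 15 B cell markers. Their medians were -0.11, -0.06 and -0.07 in that order, against -0.04 for all genes.

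Between the subsets, 5 of the 46 markers were called lower in Th17 cells and 2 higher, with a median of -0.08, where 9.79% and 12.4% of all genes were called. The 5 were Batf3 (-0.62, adjusted p = 0.000292), a transcription factor of dendritic cells, the macrophage glycoprotein gene Cd68 (-0.42, 0.0114), the receptor gene Flt3 (-0.30, 0.0152), the B cell gene Fcrla (-0.29, 0.0252) and the macrophage receptor gene Adgre1 (-0.24, 0.0380). The 2 were the hydrolase gene Naaa (0.44, 0.00925) and the B cell gene Cd72 (0.34, 0.0213). Batf3 read 6.72 to 7.63 and lay above the median gene on every array, where every defining dendritic cell marker lay under it. Adgre1 read 4.71 to 4.94 on the Th1 arrays and 4.59 to 4.68 on the Th17 arrays. Flt3 read 5.78 to 6.07 against 5.54 to 5.67, and every value of both genes lay under the median gene. Of these calls, that of Batf3 and those of Cd68 and Naaa held in all 8 fits that left out 1 array. Adgre1 held in 1 of 8 (highest adjusted p = 0.129) and in 4 of 8 other fits, Fcrla in 3 (0.109), Cd72 in 5 (0.102) and Flt3 in 6 (0.0624). Under the female share covariate, Cd68 (-0.41, adjusted p = 0.0881), Naaa (0.23, 0.187), Flt3 (-0.30, 0.0988) and Adgre1 (-0.27, 0.122) were not called. Xist was low on every Th1 array, so that covariate is tied to the subset. Whether antigen-presenting cells take part in the class II difference was not tested. Among 12 T cell markers, Cd28 (0.41), Zap70 (0.41) and Ubash3a (0.35) were called higher in Th17 cells and Cd2 (-0.35) lower, with Ubash3a and Cd2 held in 3 and 5 of the 8 fits without 1 array. With the female share all 4 calls ended: Cd28 (0.43, adjusted p = 0.0767), Zap70 (0.38, 0.105), Ubash3a (0.37, 0.168) and Cd2 (-0.25, 0.250). Of the 2 CD8 T cell markers, Cd8b1 was called lower (-0.31, adjusted p = 0.0217, held in 4 of 8 fits without 1 array, 0.138 with the female share) and Cd8a not (-0.09).

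**Figure D3:**
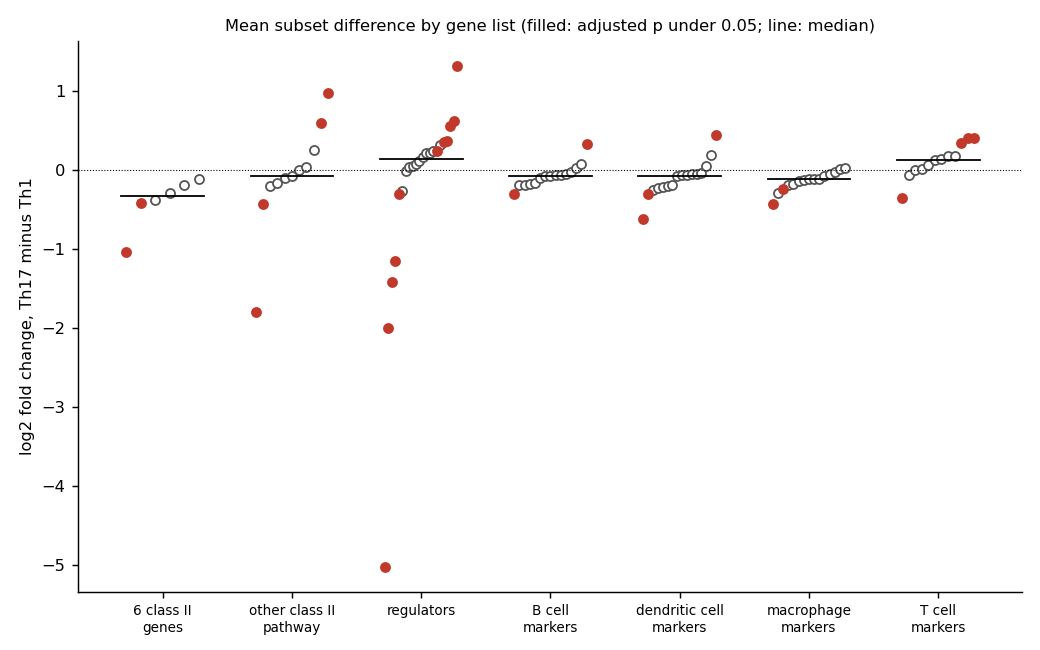
Log2 fold change, Th17 minus Th1 as the mean of both genotypes (vertical axis), of each gene in 7 lists (horizontal axis), filled where the adjusted p was under 0.05, with a line at the median of the list. The 6 class II genes all lie below 0, from -1.03 to -0.11, and the markers of B cells, dendritic cells and macrophages lie between -0.62 and 0.44.

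Of 11 other genes of the class II pathway, 2 were called lower in Th17 cells, 2 higher and 7 neither way, with a median of -0.08, where 9.79% of all genes were called lower and 12.4% higher. Cd83, which encodes a surface protein known to keep class II molecules on the cell surface and is also known from activated T cells, read 8.47 to 8.90 on the Th1 arrays and 6.80 to 6.95 on the Th17 arrays, a log2 difference of -1.79 ± 0.11 (adjusted p = 4.0e-07, limma). H2-Eb2, a class II beta chain gene next to H2-Eb1, read 5.55 to 5.96 against 5.22 to 5.48, a difference of -0.43 ± 0.09 (adjusted p = 0.00374), with every value under the median gene. Both calls held in every alternative fitted.

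Of the endosomal protease genes, Lgmn and Ctsl were called higher in Th17 cells and Ctss (0.04) was not called. Lgmn, which encodes the protease legumain, read 5.89 and 5.90 for Th1 wild-type, 6.33 and 6.46 for Th1 Tet2-deficient and 6.65 to 6.83 for Th17 cells, a mean difference of 0.60 ± 0.08 (adjusted p = 0.000219). Th1 Tet2-deficient arrays thus lay between the others, and the Tet2 effect of 0.50 ± 0.11 in Th1 cells did not pass (adjusted p = 0.730). Ctsl, which encodes cathepsin L, had 0.98 ± 0.26 (adjusted p = 0.0175), with the Th17 arrays spread from 7.32 to 8.82. Its call ended on omitting Th1 wild-type replicate 1 (0.92, adjusted p = 0.0576), Th1 Tet2-deficient replicate 2 (0.94, 0.0565) or Th17 Tet2-deficient replicate 2 (0.77, 0.0715), and when the female share was a covariate (0.39, 0.291). Without Th17 wild-type replicate 2 the difference was 0.60 and passed. Ctsl was highest on 2 of the arrays with female RNA, Th17 wild-type replicate 2 (8.82) and Th17 Tet2-deficient replicate 2 (8.22). On the other, Th17 Tet2-deficient replicate 1, it read 7.39, against 7.32 on Th17 wild-type replicate 1, where Xist was low.

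The remaining pathway genes did not pass. Beside Ctss they were the thiol reductase gene Ifi30 (0.26), the ubiquitin ligase genes Marchf1 (-0.09) and Marchf8 (0.01), the chains of the H2-O molecule, which inhibits H2-DM, H2-Oa (-0.08) and H2-Ob (-0.19), and H2-Ea (-0.17), annotated in RefSeq as a transcribed pseudogene. H2-DMb1 and H2-DMb2 share a probe set and were given no value.

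Among 22 measured regulators of class II transcription, 5 were called lower in Th17 cells and 6 higher, with a median of 0.14, against 9.79% and 12.4% of all genes. The largest fitted difference was in Ifng, which encodes interferon-gamma, at 10.18 to 11.84 on the Th1 arrays and 5.92 to 6.03 on the Th17 arrays (-5.02 ± 0.10, adjusted p = 1.5e-11, limma), with all 4 Th17 values under the median gene. Irf8, an interferon regulatory factor gene, read 10.79 to 11.46 against 8.88 to 9.31 (-2.00 ± 0.14, adjusted p = 8.8e-07). Irf1, which encodes a factor known to act on an interferon-responsive promoter of Ciita, read 8.83 to 9.64 against 7.66 to 8.30 (-1.42 ± 0.14, adjusted p = 1.7e-05), and -0.73 as the mean of its 2 probe sets. Prdm1, whose product Blimp-1 is known to repress Ciita in plasma cells, was also lower in Th17 cells (-1.15 ± 0.08, adjusted p = 1.1e-06). The genes that fell included activators and a repressor.

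Higher in Th17 cells were the interferon-gamma receptor chain gene Ifngr2 (1.32 ± 0.10, adjusted p = 1.6e-06), the kinase gene Jak1 (0.62, 0.000463), Creb1 (0.57, 0.000807) and Nfya (0.38, 0.00535), which encode factors of the class II promoter, Irf2 (0.37, 0.0116) and Il10 (0.25, 0.0340). Tgfb1 was lower (-0.30, 0.0370). The RFX subunit genes Rfx5 (0.22), Rfxank (0.12) and Rfxap (0.05) did not pass. The calls of Il10, Tgfb1 and Irf2 held in 2, 3 and 6 of the 8 fits without 1 array, with adjusted p up to 0.138, 0.132 and 0.0515. When the female share was added, those of Nfya (0.39, adjusted p = 0.0552), Il10 (0.32, 0.0748), Irf2 (0.34, 0.117) and Tgfb1 (-0.33, 0.151) ended.

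Loss of Tet2 lowered Ifng in Th1 cells by a log2 fold change of -1.39 ± 0.14 (adjusted p = 0.00438, limma), from 11.55 and 11.84 to 10.43 and 10.18. It was the 1 call among the regulators, and it ended on leaving out Th1 wild-type replicate 2 (-1.24, adjusted p = 0.0790) or Th1 Tet2-deficient replicate 2 (-1.26, 0.142), and in a fit of the Th1 arrays alone (0.151). Ifng was the 1 gene called among all 19938 (0.00502%) for Tet2 loss in Th1 cells, so none of the 6 class II genes was called. The differences of Irf1 (0.58 ± 0.19) and Irf8 (0.19 ± 0.19) were above 0 and did not pass.

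The class II genes of chromosome 17 stand among genes of class I antigen processing. From H2-Oa to H2-Ea (chromosome 17, 34092379 to 34344645 in GRCm38.p6), 13 genes were measured, of which 7 were called lower in Th17 cells and 0 higher, where 9.79% of all genes were called lower and 12.4% higher. Beside H2-Ab1, H2-Eb1 and H2-Eb2 these were the peptide transporter genes Tap1 (-1.47) and Tap2 (-0.88) and the immunoproteasome genes Psmb9 (-1.31) and Psmb8 (-0.75), which lie between H2-DMa and H2-Ob. Of the 6 that were not called, H2-Oa, Brd2 (-0.00) and H2-DMa lay at one end of the region and H2-Ea at the other. H2-Ob and H2-Aa lay between called genes. By size, the differences of Tap1 and Psmb9 were the widest, followed by that of H2-Ab1 (-1.03). H2-Aa, which lies between H2-Ab1 and H2-Eb1, differed by -0.11. The 4 class I genes were named after their values were seen.

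The genes whose profile over the 8 arrays lay nearest to that of H2-Ab1, the only one of the 6 whose range over the arrays reached 1 log2 unit, were Sparc, Tigit and Mpeg1. Nearness was the root mean square difference of the centred log2 signals, 0.17 for Sparc, 0.21 for Tigit and 0.22 for Mpeg1. Sparc, which encodes a matrix protein, read 7.73 and 7.53 for Th1 wild-type, 8.37 and 7.93 for Th1 Tet2-deficient, 6.82 and 6.91 for Th17 wild-type, and 7.03 and 7.07 for Th17 Tet2-deficient cells. Tigit, an inhibitory receptor gene of T cells and natural killer cells, read 9.44 and 9.39, 9.78 and 9.38, 8.29 and 8.52, and 8.31 and 8.47 in the same order. Mpeg1, a perforin-like gene known from macrophages, read 6.19 and 5.77, 6.53 and 6.10, 5.37 and 5.15, and 5.21 and 5.28, all under the median gene. All 3 share with H2-Ab1 a highest value on Th1 Tet2-deficient replicate 1 and no overlap between subsets. They were chosen for this likeness, so their differences are a description with no test.

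**Figure D4:**
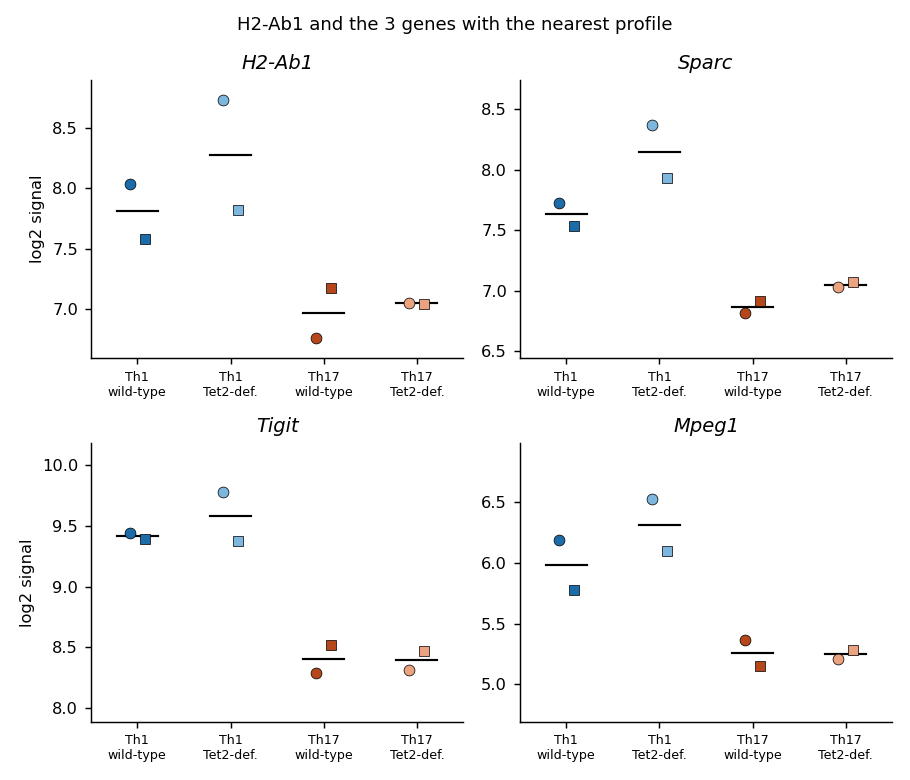
Log2 probe-set signal (vertical axis) of H2-Ab1 and of the 3 genes with the nearest profile in the 4 groups (horizontal axis), with a point for each array (circle, replicate 1; square, replicate 2) and a bar at the mean of 2 arrays. In each panel the 4 Th1 arrays lie above the 4 Th17 arrays and Th1 Tet2-deficient replicate 1 is highest.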

How the data were processed

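Messenger RNA was measured on 8 Affymetrix whole-transcript arrays. The deposited values are log2 probe-set signals, and GCOS, RMA and Affymetrix Expression Console are the tools in the submitters' processing notes, with no version, order or options. They were used without further scaling. Probe sets with 1 symbol in the platform annotation were kept, named through RefSeq gene IDs where these matched, and the one with the highest mean represents a gene, which gave 19938 genes. Array signals carry no read depth: precision is limited by the number of arrays.

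Testing used limma 3.58.1 under R 4.3.3 (4 group means, eBayes with an intensity trend, 4 residual and 8.32 prior degrees of freedom), two-sided, with Benjamini-Hochberg adjustment over all genes of each contrast. Replicate numbers were not used as a block, because replicate differences correlated only weakly between groups (r from -0.19 to 0.06 over genes). The 6 genes and all lists were chosen with earlier results of these data known. Named are the 6, called list members (the not-called pathway genes and main regulators as values), the most abundant or defining markers and the nearest profiles. Other measured list members enter the counts, medians and sums only. The method was tested on simulated data. Alternatives are given in the closing section.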

Additional observations from a re-analysis of the deposited data

How the results depend on the processing

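Alternatives were a replicate block, a fit of only the groups compared, a filter on low signal (which left out H2-Aa and Ciita), testing every probe set, averaging probe sets per gene, repeated quantile normalization, median centring, no intensity trend, robust eBayes and leaving out each array, where the lone array of a group is assumed to vary like the others. A covariate for the female share of the RNA and a crossed replicate block were added after the data were seen. Xist was low on every Th1 array, so the female share differed between the subsets as well as within Th17.

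Of the 6 genes, the number called in the subset difference of wild-type cells was 0 and became 1 with the replicate block, with the groups compared alone and with the filter. Exchanging the replicate numbers of wild-type Th17, whose differences correlated at -0.19 with those of wild-type Th1, also gave 1. The block changed no other count of class II calls. With the female share, 1 instead of 2 was called in Tet2-deficient cells and in the mean difference, and all calls in these fell to 726 from 2015 and to 2054 from 4417. Then H2-Aa had -0.013 as the Tet2 effect in Th17 and -0.11 as the difference of effects, and H2-DMa -0.015 as the mean Tet2 effect, each reversed. All calls in wild-type subsets fell from 1675 to 1101 in the groups alone, those of Tet2 loss in Th1 from 1 to 0, and those in Th17 rose from 0 to 1 with the filter and 2 with robust eBayes.

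Without 1 array, class II calls ranged from 0 to 3 in Tet2-deficient and 2 to 4 in mean subset differences. All calls ranged from 663 to 1427 in wild-type, 801 to 1204 in Tet2-deficient and 2651 to 4459 in mean subset differences, from 0 to 2 for Tet2 loss in Th1, 0 to 4 in Th17, 0 to 5 for its mean and 0 to 4 for the difference of effects. Signs that turned were those of uncalled values. For Tet2 loss in Th1 the ranges were -0.022 to 0.22 for H2-Aa, -0.11 to 0.079 for H2-Eb1, -0.10 to 0.52 for H2-DMa and -0.41 to 0.36 for Cd74. In Th17 they were -0.060 to 0.32 for H2-Aa, -0.12 to 0.29 for H2-Ab1 and -0.039 to 0.059 for Ciita. For the mean effect they were -0.12 to 0.19 for H2-DMa and -0.14 to 0.25 for Cd74. For the difference of effects they were -0.16 to 0.22 for H2-Aa, -0.84 to 0.076 for H2-Ab1 and -0.23 to 0.54 for Cd74. For subset differences they were -0.24 to 0.00093 for H2-Aa in wild-type cells, and -0.28 to 0.098 for H2-Aa and -0.68 to 0.095 for Cd74 in Tet2-deficient cells. The causes of these changes were not tested.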
